A study of Mus musculus with 12 samples.

Results

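The genes described here are 7 genes whose activity is low or silenced in the mature beta cell, or whose return marks a beta cell that has lost its identity: Aldh1a3, Neurog3, Myc, Ldha, Slc16a1, Hk1 and Hk2. They were chosen by name, and the arrays hold 16 probes for them among 41174 probes, and 7 of the 17305 genes that the RefSeq accessions of the probes name. At least 1 probe of each of the 7 genes was well above background on all 12 arrays. RNA of pancreatic islets was hybridised in 1 colour on Agilent arrays, 3 for each of 4 genotypes of mice of a mixed C57BL/6 x Sv129 background on a chow diet. WT mice carry neither mutation. PPARg2KO mice lack the isoform PPARγ2 in the whole body, ob/ob mice (labelled OB KO) lack leptin, and POKO mice (labelled OB PPARg2 double KO, or DKO) lack both. The mice were female according to the study's text. The labels give an age of 4 weeks, and the text another age. Each array holds a pool of islets from several mice, picked by hand after collagenase digestion and cultured overnight, so that the 3 arrays of a genotype measure the spread between pools. Values are log2 of the quantile-normalized signal of a probe, and a gene is given by its brightest probe unless another is named. A probe was called in a comparison at an adjusted p of at most 0.05 (limma, Benjamini-Hochberg over the 41174 probes).

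Beta cells couple glucose to insulin release by sending almost all pyruvate into the mitochondria. Genes that would divert it or let it in from the blood are kept low, and are known as disallowed genes. Ldha makes lactate from pyruvate, Slc16a1 (MCT1) carries both across the plasma membrane, and Hk1 and Hk2 phosphorylate glucose already at low concentrations. Aldh1a3 oxidises retinaldehyde to retinoic acid and is known as a marker of dedifferentiated beta cells. Neurog3 drives endocrine progenitors during development, and Myc is a growth factor-induced transcription factor that is kept low in adult beta cells.

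The Pparg probe was lower on all PPARγ2-null arrays (6.41 to 7.44) than on all others (8.54 to 9.77), and the leptin probe was not well above background on any array. The median signal before normalization was 20.9 to 27.0 in WT, 23.0 to 30.4 in PPARg2KO, 30.7 to 40.6 in ob/ob and 31.6 to 33.6 in POKO. In ob/ob vs. WT, 5 of 7 T cell, 4 of 6 B cell, 3 of 7 endothelial and 2 of 3 erythroid markers rose, beside 4.92% of all probes. In the same comparison 3 of 7 duct markers fell, beside 6.14% of all probes. None of these markers passed the test in POKO vs. WT. The T cell markers had a median difference of 3.63 there and the B cell markers one of 2.78. Of the T and B cell markers 5 and 4 had an unadjusted p under 0.05 in POKO vs. WT, beside 16.4% of all probes. The summed B cell signal was 6.37 to 6.58 in WT, 10.23 to 11.84 in ob/ob and 10.099 to 11.70 in POKO. PPARg2KO replicate 2 stood apart from its group with 11.41, against 5.95 and 6.81. Pax5, a defining B cell gene, was not well above background on any array, and the defining adipocyte gene Adipoq was not either. Acinar enzyme genes were bright on all arrays, and 0 of 10 of them passed the test in either comparison, with 1 unadjusted p under 0.05 in each. In islet RNA, fewer cells of a type and less RNA per cell cannot be told apart, and the signal of a gene cannot be assigned to beta cells alone. The defining beta cell genes Ins1, Ins2 and Pdx1 were measured on all arrays, and the summed signal of the 18 measured beta cell identity genes was 19.38 to 19.97 in WT, 19.66 to 19.90 in PPARg2KO, 19.95 to 20.14 in ob/ob and 19.78 to 19.86 in POKO.

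By their brightest probes, 1 of the 7 genes (Aldh1a3) was called in ob/ob vs. WT, in which 11.1% of all probes were called. By all probes, 4 of 16 were called there, 1 of which rose and 3 of which fell, beside 4.92% and 6.14% of all probes. One of the 3, of Slc16a1, was not well above background on most WT and ob/ob arrays. Unadjusted p-values were under 0.05 for 3 of the 7 genes, beside 31.1% of all probes. In POKO vs. WT, 1 of the 7 (Aldh1a3 again) was called, beside 0.194% of all probes, and the same gene alone had an unadjusted p under 0.05, beside 16.4%. Over both PPARγ2 states, leptin deficiency gave 1 call among the 7, beside 9.04% of all probes. None of the 7 was called by limma in the other 6 comparisons, in which hardly any probe was: 0% of all probes in PPARg2KO vs. WT, 0.00486% in POKO vs. ob/ob, 0.00971% in POKO vs. PPARg2KO, 0.00486% in ob/ob vs. PPARg2KO, and 0% both for PPARγ2 loss over both leptin states and for the interaction, which is the POKO minus ob/ob difference less the PPARg2KO minus WT difference. At an unadjusted p under 0.05, 0 of the 7 passed in PPARg2KO vs. WT (9.37% of all probes), 2 in POKO vs. ob/ob (9.28%), 1 in POKO vs. PPARg2KO (11.1%), 1 in ob/ob vs. PPARg2KO (19.3%), 1 for PPARγ2 loss (3.76%) and 2 for the interaction (13.9%).

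**Figure D1:**
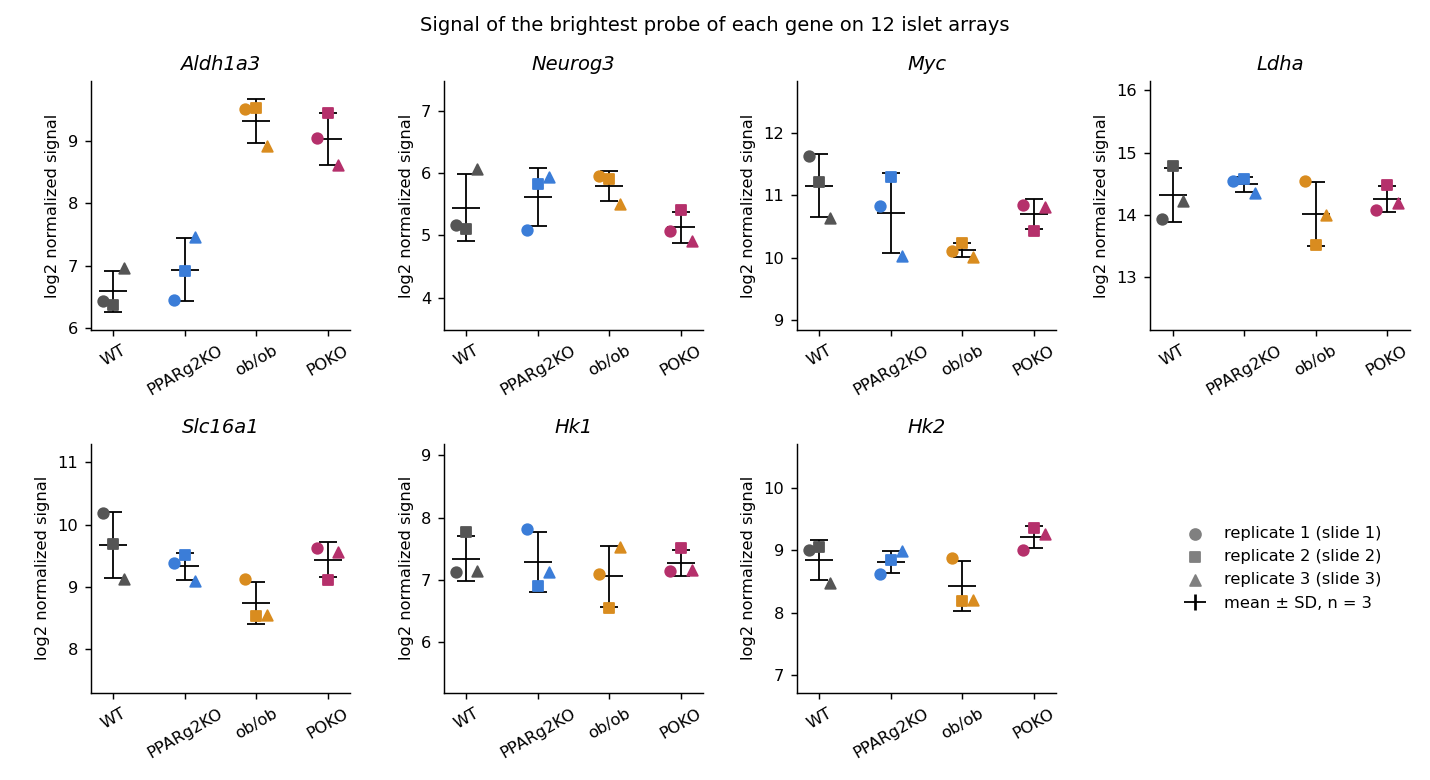
Signal of the brightest probe of each of the 7 genes on the 12 arrays, as log2 normalized signal on the vertical axis, by genotype on the horizontal axis, with the marker shape giving the replicate and the bars the mean ± SD of 3 arrays. The 6 ob/ob and POKO arrays lie between 8.62 and 9.53 for Aldh1a3, above the other 6 at 6.36 to 7.46, and the 4 genotypes lie closer together for the other genes.

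Aldh1a3 rose in the islets of both leptin-deficient genotypes. Its probe (A_52_P87843) read 6.43, 6.36 and 6.97 in WT, 6.45, 6.91 and 7.46 in PPARg2KO, 9.52, 9.53 and 8.92 in ob/ob, and 9.05, 9.45 and 8.62 in POKO. All 6 leptin-deficient arrays were thus above all 6 leptin-intact arrays, and the lowest of the former, POKO replicate 3, exceeded the highest of the latter, PPARg2KO replicate 3. The mean was 6.59 ± 0.33 (SD, n = 3) in WT, 6.94 ± 0.50 in PPARg2KO, 9.32 ± 0.35 in ob/ob and 9.04 ± 0.42 in POKO.

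In ob/ob vs. WT the log2 difference of Aldh1a3 was 2.74 (95% confidence interval 2.03 to 3.44), a 6.66-fold higher signal, with an adjusted p of 0.0103 by limma. In POKO vs. WT it was 2.45 (1.75 to 3.16), a 5.48-fold higher signal, with an adjusted p of 0.0314. Over both PPARγ2 states leptin deficiency gave 2.42 (1.92 to 2.92) with an adjusted p of 0.00434, and by p-value Aldh1a3 ranked 3 among the 17305 genes there. By size of the rise over WT it ranked 152 in ob/ob and 188 in POKO. The differences within each slide, which holds the 4 arrays of 1 replicate number, were 3.08, 3.17 and 1.95 for ob/ob vs. WT and 2.62, 3.09 and 1.65 for POKO vs. WT. With the slide as a block the adjusted p was 0.0221 for ob/ob vs. WT, and for POKO vs. WT it was 0.0891, which misses the threshold.

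The rise of Aldh1a3 in ob/ob vs. WT was called with each of the other 21 settings and left-out arrays. Against WT in POKO, it was called with 14 of 21. Beside the slide block, the call was lost with another background correction (0.0872) and without WT replicate 1 (adjusted p = 0.0688), WT replicate 2 (0.0901), ob/ob replicate 2 (0.0595), POKO replicate 1 (0.130) or POKO replicate 2 (0.0760), while the difference lay between 2.25 and 2.66 over all 12 left-out arrays.

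No difference in Aldh1a3 between PPARγ2-null and PPARγ2-intact islets passed the test. The difference was 0.35 (-0.35 to 1.06) in PPARg2KO vs. WT and -0.28 (-0.99 to 0.42) in POKO vs. ob/ob, with adjusted p of 0.717 and 0.844. The interaction was -0.63 (-1.63 to 0.36, adjusted p = 0.543). POKO exceeded PPARg2KO by 2.10 (1.40 to 2.80), and ob/ob exceeded it by 2.38 (1.68 to 3.09). Neither passed the adjusted threshold (0.129 and 0.0774), although the groups did not overlap. Without PPARg2KO replicate 3, the highest of the leptin-intact arrays, both were called, with adjusted p of 0.0251 and 0.0135. The excess of ob/ob was also called without PPARg2KO replicate 2 (0.0338), without ob/ob replicate 1 (0.0178), with the filter on dim probes (0.0385) and with array weights (0.0369). Of 21 other settings, POKO vs. PPARg2KO was thus called with 1 and ob/ob vs. PPARg2KO with 5. The adjusted p reached 0.335 and 0.260.

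Aldh1a3 ran with several marker sums over the 12 arrays. Its r was 0.86 with the erythroid markers, 0.82 with the B cell markers and 0.81 with the adipocyte markers, and after the genotype means were removed it was 0.11, 0.23 and 0.80. PPARg2KO replicate 2, with a B cell sum of 11.41 at the level of the ob/ob arrays, had an Aldh1a3 signal of 6.91. The summed adipocyte signal was 9.89 to 11.21 in WT and 11.65 to 11.84 in ob/ob. Of 6 adipocyte markers 1 (Fabp4) was called in ob/ob vs. WT, beside 11.1% of all probes. The defining genes Adipoq and Lep never rose well above background. With the beta cell identity genes r was 0.72, and 0.52 after the genotype means were removed. These coefficients describe 12 arrays that share 3 slides, and the part of other cells in the Aldh1a3 difference was not tested.

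**Figure D2:**
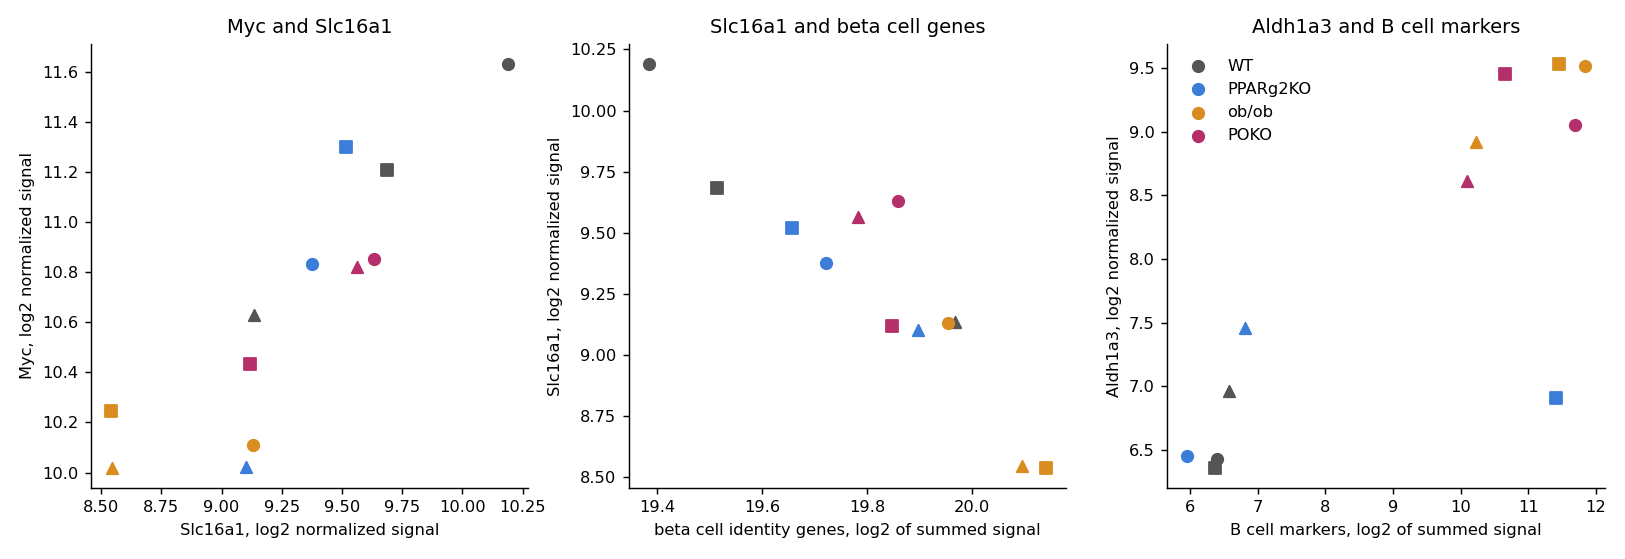
Each point is 1 of the 12 arrays, with colour for the genotype and marker shape for the replicate. The left panel plots Myc against Slc16a1, the middle panel Slc16a1 against the summed signal of the beta cell identity genes and the right panel Aldh1a3 against the summed signal of the B cell markers, all on the log2 scale. Myc and Slc16a1 rise together (r = 0.873), Slc16a1 falls as the beta cell signal rises (r = -0.92), and PPARg2KO replicate 2 lies at 11.41 on the B cell axis and at 6.91 for Aldh1a3.

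The 5 genes whose pattern over the 12 arrays was most like that of Aldh1a3, among 11692 genes well above background on all arrays, were Ffar2, a receptor for short-chain fatty acids (r = 0.969), Chgb, a granin of the secretory granule (0.961), Timeless, a protein of the replication fork (0.959), Slc25a20, the mitochondrial carnitine-acylcarnitine carrier (0.951), and Inhbb, a subunit of activins and inhibins (0.949). After the genotype means were removed, r was 0.903 for Ffar2 and 0.850 for Chgb, and it was 0.569 for Timeless.

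None of the other retinaldehyde dehydrogenases rose in ob/ob vs. WT. Of 4 measured, Aldh1a2 fell in ob/ob vs. WT by 1.01 on the log2 scale (adjusted p = 0.0361), and Aldh1a1 (-0.60), Aldh1a7 (-1.37) and Aldh1b1 (-0.11) were not called. Of all probes 6.14% fell in that comparison. Over both PPARγ2 states Aldh1a7 fell with leptin deficiency by 1.23 (adjusted p = 0.0405). None of the 4 was called in POKO vs. WT, and none had an unadjusted p under 0.05 there.

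Neurog3 was measured by probe A_51_P175784 at 5.17, 5.10 and 6.06 in WT, 5.08, 5.82 and 5.94 in PPARg2KO, 5.95, 5.90 and 5.51 in ob/ob, and 5.07, 5.41 and 4.91 in POKO. The POKO arrays were all below the ob/ob arrays, and every other pair of genotypes overlapped. The POKO vs. ob/ob difference was -0.66 (-1.34 to 0.028, adjusted p = 0.540), and in ob/ob vs. WT it was 0.34 (-0.34 to 1.03, adjusted p = 0.467). POKO vs. WT gave -0.31 (-0.999 to 0.37) with an adjusted p of 0.625. The pattern of Neurog3 was most like that of Psd3 (r = 0.927) and St3gal5 (0.921), and the list of the 5 most alike also held Hhex, a transcription factor of delta cells (0.916).

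Of 18 other measured genes of progenitors and dedifferentiation, 2 fell and 0 rose in ob/ob vs. WT, beside 6.14% and 4.92% of all probes. Hes1, a target of Notch, fell by 0.73 (adjusted p = 0.0270), and Sox9, a factor of progenitors and of adult duct cells, fell by 0.73 (0.0346). Sox9 is also in the list of 7 duct markers, of which Krt19 and Cftr fell too, and the summed duct signal was 16.32 to 16.52 in WT and 15.59 to 16.18 in ob/ob. The part of duct cells in the Sox9 difference was not tested. The median of the 18 genes was -0.31 in ob/ob and -0.18 in POKO, each against WT, beside -0.076 and -0.075 for all probes, and in POKO vs. WT none was called and 4 of 18 had an unadjusted p under 0.05, beside 16.4% of all probes.

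Myc differed in ob/ob vs. WT by about the same amount on its 3 probes, of which 1 passed the test. Its brightest probe (A_51_P102096) read 11.63, 11.21 and 10.63 in WT, 10.83, 11.30 and 10.02 in PPARg2KO, 10.11, 10.24 and 10.02 in ob/ob, and 10.85, 10.43 and 10.82 in POKO. The ob/ob arrays lay below all WT and all POKO arrays, and overlapped PPARg2KO through replicate 3 of that genotype. In ob/ob vs. WT the difference was -1.03 (-1.78 to -0.29), a 2.05-fold lower signal, with an adjusted p of 0.0710. The other probes differed by as much, -1.04 for A_52_P108346 (adjusted p = 0.0756) and -1.04 for A_52_P278549, which fell with an adjusted p of 0.0388. The slides gave -1.52, -0.96 and -0.61 for the brightest probe.

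The call of A_52_P278549 held with 10 of 20 other settings. It was lost with another background correction, with a fit of the WT and ob/ob arrays alone, and without any single one of the 3 ob/ob, the 3 POKO or the WT replicate 1 and 2 arrays, with adjusted p of up to 0.123. The brightest probe passed with array weights (0.0165), with the filter on dim probes (0.0419), and without WT replicate 3 (0.0297) or PPARg2KO replicate 3 (0.0391), and the mean of the 3 probes gave 0.0440. Myc was thus called with 5 of 21 other settings, and the adjusted p reached 0.206. Calls over all probes were 4555 in the main fit, 12087 with array weights and 8460 without WT replicate 3. In POKO vs. ob/ob Myc differed by 0.58 (-0.17 to 1.32, adjusted p = 0.619), in POKO vs. WT by -0.45 (-1.20 to 0.29, 0.519) and in PPARg2KO vs. WT by -0.44 (-1.18 to 0.30, 0.666). The interaction was 1.02 (-0.035 to 2.07, adjusted p = 0.374).

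Of 19 other genes of the Myc family and its targets, 2 rose and 2 fell in ob/ob vs. WT, beside 4.92% and 6.14% of all probes. The rises were in Mxd3 (1.55, adjusted p = 0.0183) and Mxd1 (0.75, 0.0393), which compete with Myc for its partner Max. Mxd4, of the same family, fell by 0.62 (0.0217), and Rcc1, a nucleotide exchange factor of Ran, fell by 0.67 (0.0364). Mxd3 was well above background on 5 of 12 arrays. The median of the 19 was -0.19. Between POKO and WT none was called and 5 had an unadjusted p under 0.05, beside 16.4% of all probes. The genes most like Myc over the arrays were Exosc5, a subunit of the RNA exosome (r = 0.976), Ippk (0.953), Sc5d (0.950), Mrps30 (0.946) and Scyl2 (0.944).

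Slc16a1 fell in ob/ob vs. WT on 1 of its 2 bright probes, and neither was called in POKO vs. WT. The brightest probe (A_51_P397367) read 10.19, 9.69 and 9.13 in WT, 9.38, 9.52 and 9.10 in PPARg2KO, 9.13, 8.54 and 8.55 in ob/ob, and 9.63, 9.12 and 9.56 in POKO. Probe A_51_P397363 read 9.0, 8.58 and 8.13 in WT, 8.37, 8.60 and 8.04 in PPARg2KO, 7.77, 7.42 and 7.54 in ob/ob, and 8.54, 7.97 and 8.45 in POKO. On this probe every ob/ob array was below every array of the other genotypes.

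The brightest Slc16a1 probe differed in ob/ob vs. WT by -0.93 (-1.56 to -0.31), a 1.91-fold lower signal that missed the threshold (adjusted p = 0.0594). Probe A_51_P397363 differed by -0.995 (-1.55 to -0.44, adjusted p = 0.0374), which passed the test. The dim probe A_52_P245119 was called too (-1.11, adjusted p = 0.0302), but it was well above background on 1 of 3 WT and 1 of 3 ob/ob arrays, so the size of this difference is uncertain. The slides gave -1.06, -1.15 and -0.59 for the brightest probe, and with the slide as a block its adjusted p was 0.0421. Slc16a1 was called with 6 of 21 other settings, and the adjusted p reached 0.168. Between POKO and WT the brightest probe differed by -0.23 (-0.86 to 0.39, adjusted p = 0.697). POKO exceeded ob/ob by 0.70 (0.075 to 1.33), with an unadjusted p of 0.0320 and an adjusted p of 0.531, and did so on each slide, by 0.50, 0.58 and 1.02. In PPARg2KO vs. WT the difference was -0.34 (-0.96 to 0.29, adjusted p = 0.694).

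The interaction for Slc16a1 was 1.04 (0.15 to 1.92) on the brightest probe and 0.98 on A_51_P397363. The unadjusted p-values were 0.0261 and 0.0191, and neither passed the adjustment (0.306 and 0.291). No interaction is given for the dim probe, whose values are partly at background. The dim probe A_52_P245119 was well above background on 1 of 3 WT, 0 of 3 PPARg2KO, 1 of 3 ob/ob and 3 of 3 POKO arrays, so that its PPARg2KO value is a bound. POKO was at least 1.54-fold higher than PPARg2KO there, with an adjusted p of 0.262 by limma. For WT vs. PPARg2KO the adjusted p was 0.305. No fold is given for it, because the WT values are themselves partly at background. The bound is the mean of the higher of the dim value and the lowest signal well above background on each array.

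The calls of the Slc16a1 probes in ob/ob vs. WT were lost without single arrays. A_51_P397363 was called with 12 of 20 other settings, and lost its call with another background correction, with a fit of the WT and ob/ob arrays alone, and without WT replicates 1 or 2, ob/ob replicates 2 or 3, or POKO replicates 1 or 3, with adjusted p of up to 0.114. A_52_P245119 was called with 14 of 20, and lost its call with a shift to the 75th percentile, with a fit of those arrays alone, and without WT replicates 1 or 2 or ob/ob replicates 2 or 3. These arrays also set the number of calls over all probes, which was 4555 with all arrays and 173 to 509 without any of these WT or ob/ob arrays.

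**Figure D3:**
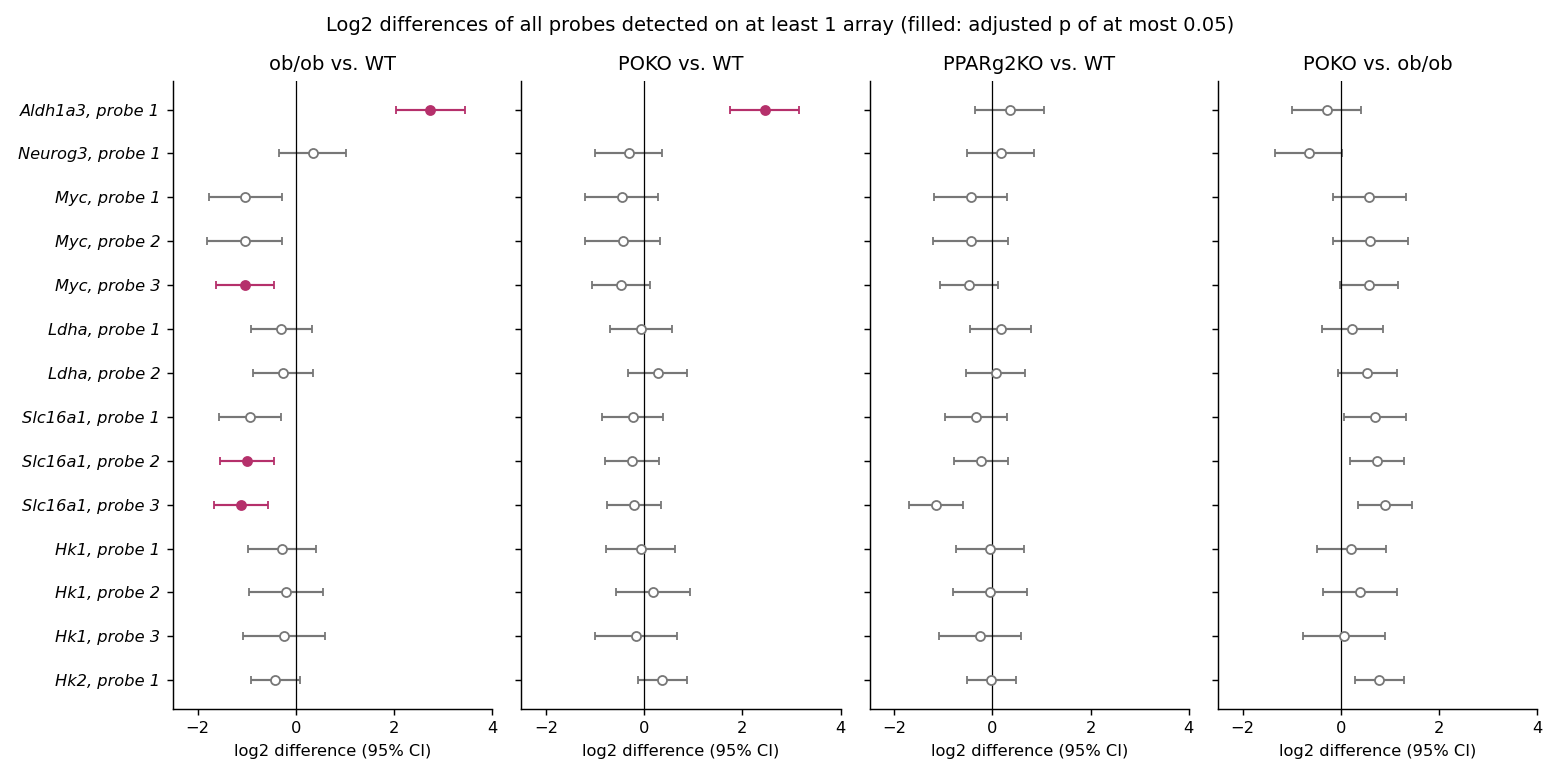
Log2 differences with 95% confidence intervals of the 14 member probes that were well above background on at least 1 array, in 4 comparisons, with points filled at an adjusted p of at most 0.05. Aldh1a3 is filled against WT at 2.74 in ob/ob and at 2.45 in POKO, and probes of Myc (-1.04) and Slc16a1 (-0.995, and -1.11 for the dim probe 3) are filled in ob/ob vs. WT alone.

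Slc16a1 and Myc had the highest r over the 12 arrays of the 21 pairs of the 7 genes (0.873, and 0.748 after the genotype means were removed). After that removal Aldh1a3 and Neurog3 had the highest r (0.895), against 0.16 before it. Slc16a1 and Myc both ran against the summed signal of the beta cell identity genes, with r of -0.92 for Slc16a1 and -0.89 for Myc. After the genotype means were removed, r was -0.87 and -0.77. They also ran against other sums, namely Schwann cells and neurons (-0.86 and -0.85) and adipocytes (-0.81 and -0.83). The same held for endothelial cells (-0.77 and -0.79) and for alpha, delta and PP cells (-0.78 and -0.72). With the acinar sum r was positive (0.26 and 0.64), as with the duct (0.55 and 0.38) and macrophage sums (0.52 and 0.23). After the genotype means were removed, it was -0.033 and 0.59 (acinar), 0.018 and -0.31 (duct), and 0.31 and -0.097 (macrophages). With the neural, adipocyte, endothelial and alpha, delta and PP cell sums it stayed negative after that removal (-0.77 to -0.56). WT replicate 1 had the highest Slc16a1 and Myc signals and the lowest beta cell sum (19.38). These are descriptions over 12 arrays that share slides. The part of the beta cell signal, or of other cells, in the differences was not tested. The 5 genes most like Slc16a1 were Dcaf13, a factor of ribosome assembly (r = 0.978), Prmt6, an arginine methyltransferase (0.970), Amdhd2 (0.969), Ralgps1 (0.966) and Eif1ad (0.963).

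Because Myc is a factor that binds the E-box CACGTG, the 250 bases before the RefSeq transcript start (GRCm38.p6) were searched for it on both strands. RefSeq windows were at hand for 5 of the 7 genes, as 7 windows. Slc16a1 held 1 match and the upstream window of Ldha held 2, the second Ldha window, both Hk1 windows and those of Hk2 and Neurog3 held 0, and 6.02% of the 32851 windows of all genes held at least 1. A match is a description of these letters and no evidence of binding. The windows of Slc16a1 (chr3:104638414-104638663, plus strand) and Ldha (chr7:46845554-46845803, plus strand), which hold the matches, and of Hk2 (chr6:82774455-82774704, minus strand), which holds none, are shown 5′ to 3′ with the E-box in capitals.
Slc16a1: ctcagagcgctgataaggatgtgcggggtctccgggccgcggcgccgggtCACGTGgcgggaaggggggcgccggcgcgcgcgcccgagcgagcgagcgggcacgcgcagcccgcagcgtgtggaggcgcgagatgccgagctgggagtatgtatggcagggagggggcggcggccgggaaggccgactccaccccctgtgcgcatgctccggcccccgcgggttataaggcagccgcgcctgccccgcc
Ldha: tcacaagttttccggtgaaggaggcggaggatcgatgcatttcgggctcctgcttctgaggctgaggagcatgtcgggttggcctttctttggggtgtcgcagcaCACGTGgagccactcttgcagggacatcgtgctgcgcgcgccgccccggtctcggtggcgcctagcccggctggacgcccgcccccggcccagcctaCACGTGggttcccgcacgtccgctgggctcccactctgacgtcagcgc
Hk2: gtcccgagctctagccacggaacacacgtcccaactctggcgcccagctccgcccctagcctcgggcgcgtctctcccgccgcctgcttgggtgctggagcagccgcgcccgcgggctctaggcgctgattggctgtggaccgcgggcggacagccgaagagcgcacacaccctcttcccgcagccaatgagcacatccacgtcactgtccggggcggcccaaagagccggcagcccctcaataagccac
These windows are rich in G and C, with 76.4% for Slc16a1, 67.2% for Ldha and 69.6% for Hk2.

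No comparison of Ldha passed the test. Its brightest probe (A_51_P364140) read 13.93, 14.79 and 14.23 in WT, 14.54, 14.58 and 14.35 in PPARg2KO, 14.54, 13.52 and 14.00 in ob/ob, and 14.08, 14.48 and 14.20 in POKO. All pairs of genotypes overlapped. The difference was -0.30 (-0.92 to 0.33, adjusted p = 0.489) in ob/ob vs. WT, -0.063 (-0.69 to 0.56) in POKO vs. WT and 0.23 (-0.39 to 0.85) in POKO vs. ob/ob. The other probe (A_51_P364146) gave -0.26, 0.28 and 0.54 in these comparisons and was not called either. The genes most like Ldha over the arrays were Cadm3 (r = 0.889) and Anxa2 (0.888).

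Among the 15 other genes of lactate and pyruvate handling, 1 rose and 2 fell in ob/ob vs. WT, beside 4.92% and 6.14% of all probes. Slc16a3 (MCT4), a lactate exporter of glycolytic cells, rose by 1.16 (adjusted p = 0.0496). Slc16a7 (MCT2), a carrier with high affinity for pyruvate, fell by 1.56 (0.0243), and Pdha1, a subunit of pyruvate dehydrogenase, fell by 0.57 (0.0217). Between POKO and WT these genes differed by 1.28, -0.73 and -0.31, none of the 15 was called, and 4 had an unadjusted p under 0.05, beside 16.4% of all probes. The median of the 15 was 0.059 in ob/ob vs. WT, beside -0.076 for all probes.

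Hk1 was measured by 5 probes, of which A_52_P9337 and A_52_P87141 never rose well above background. The brightest (A_52_P674530) read 7.13, 7.77 and 7.14 in WT, 7.82, 6.91 and 7.14 in PPARg2KO, 7.09, 6.55 and 7.53 in ob/ob, and 7.14, 7.52 and 7.16 in POKO. All pairs of genotypes overlapped. The difference was -0.29 (-0.98 to 0.41) in ob/ob vs. WT, -0.073 (-0.77 to 0.62) in POKO vs. WT and 0.22 (-0.48 to 0.91) in POKO vs. ob/ob. The other detected probes (A_51_P249024 and A_52_P479599) differed by -0.20 and -0.23 in ob/ob vs. WT. No Hk1 comparison passed the test, and the interval in ob/ob vs. WT reaches a log2 difference of -0.98. The gene most like Hk1 over the arrays was Pdk3, a kinase that inhibits pyruvate dehydrogenase (r = 0.872).

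Hk2 (A_51_P204080) read 9.0, 9.05 and 8.48 in WT, 8.62, 8.84 and 8.98 in PPARg2KO, 8.88, 8.19 and 8.20 in ob/ob, and 9.01, 9.35 and 9.27 in POKO. The POKO arrays were above all ob/ob and all PPARg2KO arrays and overlapped WT. POKO exceeded ob/ob by 0.78 (0.29 to 1.28), with an unadjusted p of 0.006 and an adjusted p of 0.531, and by 0.13, 1.16 and 1.07 on the slides. Against WT, Hk2 differed in ob/ob by -0.42 (-0.92 to 0.080, adjusted p = 0.233) and in POKO vs. WT by 0.37 (-0.13 to 0.86, 0.455). With weights for single arrays Hk2 passed in ob/ob vs. WT (-0.66, adjusted p = 0.0285) and in POKO vs. ob/ob (0.92, 0.0476). In each of these comparisons Hk2 was called with 1 of 21 other settings, and the adjusted p reached 0.476 and 0.885. The weights also raised the calls over all 41174 probes in ob/ob vs. WT from 4555 to 12087. The genes most like Hk2 were Myo9b (r = 0.948), Rbms1 (0.943) and Rnf149 (0.933).

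Hkdc1 and Hk3, other hexokinases, were not called in ob/ob vs. WT. Hkdc1 differed by -0.997 (adjusted p = 0.190) and Hk3, which is known from white blood cells, by 0.80 (0.0918, with an unadjusted p of 0.0193). Over both PPARγ2 states Hk3 rose with leptin deficiency by 0.96 (0.0288). In that comparison 5 of 7 T cell, 4 of 6 B cell and 1 of 6 macrophage markers rose. In ob/ob vs. WT 0 of 6 macrophage markers were called. The median of the summed macrophage signal was 12.23 in WT, 11.26 in ob/ob and 12.29 in POKO. The part of these cells in the Hk3 difference was not tested. Of 19 genes of glucose carriers and glycolysis, 6 rose and 0 fell in ob/ob vs. WT, beside 4.92% and 6.14% of all probes, with a median of 0.47 beside -0.076 for all probes. They include the glucose carrier Slc2a3 (GLUT3, 1.37, adjusted p = 0.0251), the aldolase Aldoc (1.1, 0.0292), the mutase Pgam1 (0.67, 0.0371) and the phosphofructokinase Pfkm (1.16, 0.0405). The median was 0.29 in POKO vs. WT, where 0 of 19 were called and 5 had an unadjusted p under 0.05, beside 16.4% of all probes.

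**Figure D4:**
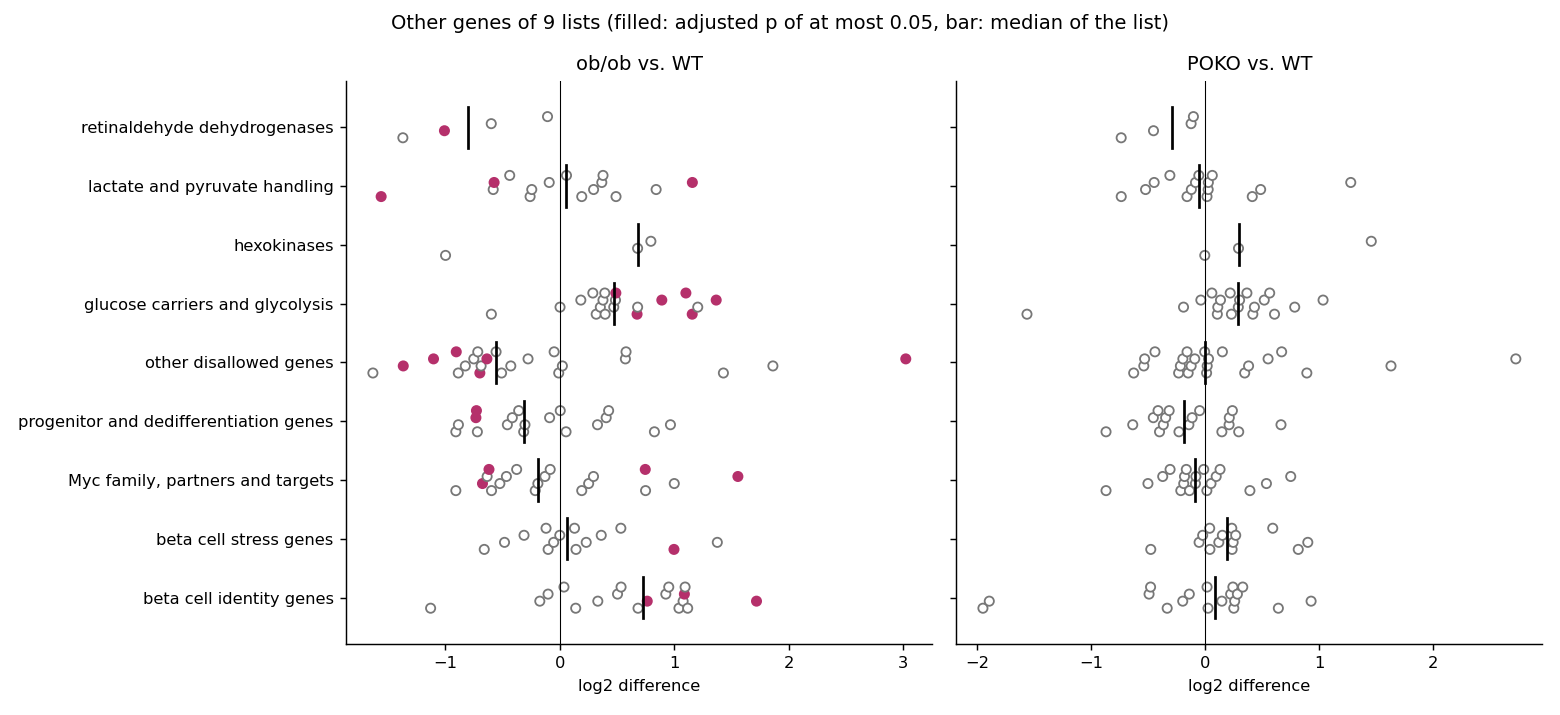
Log2 differences of the other genes of 9 lists in ob/ob vs. WT (left) and POKO vs. WT (right), 1 point a gene, filled at an adjusted p of at most 0.05, with a bar at the median of each list. Filled points occur in ob/ob vs. WT alone: most genes of glucose carriers and glycolysis lie to the right of 0 (median 0.47) and most other disallowed genes to the left (median -0.56), and the median of the latter in POKO vs. WT is -0.0022.

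Of 23 other disallowed genes, 5 fell and 1 rose in ob/ob vs. WT, beside 6.14% and 4.92% of all probes, with a median of -0.56 beside -0.076 for all probes. Tst, a mitochondrial sulfurtransferase, fell by 1.102 (adjusted p = 0.0252), Mgst1, a membrane-bound glutathione transferase, fell by 1.37 (0.0287), and Smad3, a mediator of TGF-β signalling, fell by 0.64 (0.0311). Arhgdib, which is abundant in white blood cells, rose by 3.02 (0.0296). The T and B cell markers rose on the same arrays, and their part in the Arhgdib rise was not tested. Between POKO and WT, 0 of the 23 were called and 3 had an unadjusted p under 0.05, beside 16.4% of all probes.

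Of the 18 measured beta cell identity genes, 3 rose and 0 fell in ob/ob vs. WT, beside 4.92% and 6.14% of all probes, and 15 of 18 were higher, with a median of 0.72. The 3 that rose were Foxo1 (0.76, adjusted p = 0.0375), Nkx6-1 (1.09, 0.0397) and the proinsulin convertase Pcsk1 (1.72, 0.0407). In POKO vs. WT the median was 0.088 with 0 calls, 11 of 18 were higher, and 3 unadjusted p-values were under 0.05, beside 16.4% of all probes. In POKO vs. ob/ob 18 of 18 were lower with 0 calls and 6 unadjusted p-values under 0.05, beside 9.28% of all probes. Markers of some other cells were mostly lower there too. Of these, 0 of 7 endothelial, 0 of 6 B cell and 1 of 8 alpha, delta and PP cell markers were higher. Those of further cells were mostly higher, with 6 of 6 macrophage, 7 of 8 stellate cell and fibroblast, 5 of 7 duct and 7 of 10 acinar markers. The part of all these cells was not tested. Mafa, a factor of the mature beta cell and one of the genes that went against the list's median, differed from WT by -1.13 in ob/ob and by -1.95 in POKO, and Ucn3, a peptide of mature beta cells, by -0.10 and -1.89, none of which was called. Of 14 beta cell stress genes, Nfkbia, an inhibitor of NF-κB, rose in ob/ob vs. WT by 1.00 (adjusted p = 0.0194), and the other 13 were not called. Of all probes 4.92% rose there. The Nfkbia difference between POKO and WT was 0.90 (0.0744).

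The calls in these lists in ob/ob vs. WT depend on single arrays. Without WT replicate 2 or ob/ob replicate 3, 0 genes of the 9 lists were called. Without WT replicate 1 calls were left in the Myc list (2), and without ob/ob replicate 2 in the Myc list (1) and the stress list (1). A fit of the WT and ob/ob arrays alone left 1 call in the Myc list and 1 among the other disallowed genes. The medians given above do not use the calls, but they come from the same arrays and were not recomputed without single arrays.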

How the data were processed

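Islet RNA of 12 mouse pools, 3 for each of 4 genotypes, was measured on Agilent 4x44K arrays. Per the file headers, Agilent Feature Extraction 10.1.1.1 read each spot and subtracted a background, and the deposited processed signal is an intensity not normalized between arrays. The authors also deposited a table of normalized values on the log2 scale, used as an alternative. Here the 43379 non-control spots of each array were normalized by quantiles and put on the log2 scale, 919 outlier spots were left out, and replicate spots were averaged by probe. One fit in R 4.3.3 with limma 3.58.1 on the 4 genotype means gave 9 comparisons. The study's array block could not be fitted, since each array holds 1 sample. Probes were named by RefSeq accession, 25097 of 41174. The precision is limited by 3 arrays per genotype. Slides and scans, 3 of each per the file headers, coincide with the replicate numbers. After the genotype means were removed, r between arrays of 1 slide ran from -0.13 to 0.18, and the most similar array of another genotype was on the same slide for 10 of 12 arrays. The scripts were tested on simulated data. The members and lists were chosen with earlier results of these data known. Named genes are all probes of the 7 genes, up to 4 called genes of each other list, and the 5 genes nearest to a member by Pearson's r over 12 arrays, of which some are named. Mafa, Ucn3, Aldh1a1, Aldh1b1 and Hkdc1 were named after their values were seen. Alternatives were another scaling, normexp on the median signal with an offset of 50, a filter on dim probes, outlier spots kept, a fit of the compared genotypes, the slide as a block, array weights, the deposited values, the mean of a gene's probes, the study's fold criterion, and each array left out. Normexp, the fold criterion and the recomputed lists and probes were chosen after seeing the data.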

Additional observations from a re-analysis of the deposited data

Results flagged for a closer look

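For Aldh1a3, the effect of PPARγ2 loss was positive on all 3 slides with leptin (PPARg2KO vs. WT, 0.02, 0.55 and 0.49) and negative on all 3 without leptin (POKO vs. ob/ob, -0.47, -0.08 and -0.30). The interaction was -0.63, with an adjusted p of 0.543 by limma.

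For Slc16a1, the effect of PPARγ2 loss was negative on all 3 slides with leptin (-0.81, -0.17 and -0.03) and positive without it (0.50, 0.58 and 1.02). The interaction was 1.04, with an adjusted p of 0.306 by limma. These values are of the brightest probe. On A_51_P397363 the slides gave -0.63, 0.021 and -0.086 with leptin, which is not of 1 sign, and 0.78, 0.55 and 0.91 without it.

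For Hk2, the effect of leptin deficiency was negative on all 3 slides with PPARγ2 (ob/ob vs. WT, -0.12, -0.86 and -0.28) and positive without PPARγ2 (POKO vs. PPARg2KO, 0.39, 0.51 and 0.29). The interaction was 0.81, with an adjusted p of 0.311 by limma. None of these differences passed the test.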

How the results depend on the processing

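The count of called members (1 in ob/ob vs. WT, 1 in POKO vs. WT, 1 for leptin deficiency, 0 elsewhere) moved in a few settings. In ob/ob vs. WT it was 3 with the filter on dim probes, 2 with the slide as a replicate block, 4 with array weights, 3 with the mean of a gene's probes, and 1 to 3 without single arrays. In POKO vs. WT it was 0 with normexp, 0 with the replicate block and 0 to 1 without single arrays. In ob/ob vs. PPARg2KO it was 1 with the filter, 1 with array weights and 0 to 1 without single arrays, in POKO vs. ob/ob 1 with array weights, in POKO vs. PPARg2KO 0 to 1 and for leptin deficiency 1 to 2 without single arrays. The replicate block took away the call of Aldh1a3 in POKO vs. WT (adjusted p = 0.0891), added one for Slc16a1 in ob/ob vs. WT (0.0421) and changed no other call of a member by its brightest probe. The most similar array of another genotype was on the same slide for 10 of 12 arrays. Of 1302 log2 differences, 55 changed sign, in 20 results of which none was called in either setting and the largest was 0.23. With the shift to the 75th percentile these were Hk1 in POKO vs. PPARg2KO (0.057) and Neurog3 for leptin deficiency (0.11). With normexp they were Hk2 in PPARg2KO vs. WT (0.0031) and for leptin deficiency (0.030), and Aldh1a3 for PPARγ2 loss (-0.051). With array weights they were Neurog3 for leptin deficiency (0.061) and Aldh1a3 for PPARγ2 loss (-0.0015), and with the mean of probes Ldha in POKO vs. WT (0.11), Hk1 in POKO vs. PPARg2KO (0.0042) and Myc in POKO vs. PPARg2KO (0.00017). Without single arrays the range spanned 0 for PPARγ2 loss in Aldh1a3 (-0.094 to 0.16), Hk1 (-0.054 to 0.20) and Myc (-0.076 to 0.24). It did so for leptin deficiency in Hk2 (-0.13 to 0.046) and Neurog3 (-0.20 to 0.083), and for the interaction in Ldha (-0.19 to 0.32). In PPARg2KO vs. WT it did so for Ldha (-0.021 to 0.41), Hk1 (-0.32 to 0.15), Hk2 (-0.21 to 0.076) and Neurog3 (-0.0020 to 0.48). In POKO vs. WT it did so for Ldha (-0.26 to 0.17), Slc16a1 (-0.50 to 0.029) and Hk1 (-0.19 to 0.14), and in POKO vs. ob/ob for Ldha (-0.019 to 0.49) and Hk1 (-0.037 to 0.45). In POKO vs. PPARg2KO it did so for Slc16a1 (-0.0086 to 0.27), Hk1 (-0.21 to 0.25) and Myc (-0.36 to 0.28), and in ob/ob vs. PPARg2KO for Hk1 (-0.47 to 0.036) and Neurog3 (-0.093 to 0.33). The causes were not tested. Genes called in ob/ob vs. WT ranged over all settings from 0 to 13 among other disallowed genes (6 in the report), 0 to 8 among glucose carriers and glycolysis (6), 0 to 7 in lactate and pyruvate handling (3), 0 to 7 among progenitor genes (2), 0 to 10 in the Myc list (4), 0 to 12 among beta cell identity genes (3), 0 to 5 among stress genes (1), 0 to 2 among retinaldehyde dehydrogenases (1) and 0 to 1 among hexokinases (0). Calls over all probes were 4555, with 564 in a fit of the compared genotypes alone, 173 to 8460 without single arrays, 12087 with array weights and 2871 of 17305 genes with the mean of probes. Signal over background limits 1 Slc16a1 and 2 Hk1 probes.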
